A study of Mus musculus with 4 samples.

Results

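A set of 9 interferon-induced genes was followed in mouse LSK cells: the oligoadenylate synthetase genes Oas2 and Oasl2, the IFIT genes Ifit1, Ifit2 and Ifit3, and Irf7, Usp18, Rsad2 and Isg15. They were taken by platform gene symbol as a list of type I interferon genes, each with the probe set that names that gene alone, and these 9 stand among 22180 genes named in this way. LSK cells are marrow cells sorted for the absence of lineage markers and the presence of Sca-1 and c-Kit, a fraction that holds hematopoietic stem cells and early progenitors. RNA was measured on 4 Affymetrix arrays, 1 for each of Ctrl and AMKO at basal (day 0) and of both again 8 days after an injection of 5FU (fluorouracil, 150 mg/kg), an antimetabolite used here to activate stem cells. All mice were C57/B6 males aged 4 months. The labels do not spell out AMKO, name a targeted gene or say how many mice gave the RNA of an array, so AMKO is a group name here and the genotype was not checked on the arrays.

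Type I interferons bind a receptor made of Ifnar1 and Ifnar2, whose kinases Jak1 and Tyk2 activate Stat2. Stat2 and Irf9 belong to a factor that binds the interferon-stimulated response element, a paired GAAA sequence in the promoters of induced genes. Blood stem cells hold part of this gene program without infection, and interferon alpha is known to push resting stem cells into division.

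The promoters of 4 of the 9 genes are shown because they carry this paired element, so that they can be read beside the arrays. The letters searched were GAAANNGAAA on both strands (TTTCNNTTTC where the match lies on the strand opposite the gene), in windows from 250 bases before to 50 bases after each annotated start. The sequences are RefSeq's on GRCm38.p6, written along the gene's strand, with matches in capitals. Of the 9 genes, 7 matched an entry of the sequence table by symbol, and Oas2 and Usp18 did not.
Ifit1, chr19:34640639-34640938, plus strand: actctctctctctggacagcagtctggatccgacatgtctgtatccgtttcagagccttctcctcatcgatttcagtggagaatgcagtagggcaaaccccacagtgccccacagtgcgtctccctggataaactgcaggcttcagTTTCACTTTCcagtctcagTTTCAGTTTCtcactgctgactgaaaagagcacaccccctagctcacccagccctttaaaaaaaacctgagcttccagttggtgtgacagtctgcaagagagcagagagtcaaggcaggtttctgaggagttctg
Ifit3, chr19:34583279-34583578, plus strand: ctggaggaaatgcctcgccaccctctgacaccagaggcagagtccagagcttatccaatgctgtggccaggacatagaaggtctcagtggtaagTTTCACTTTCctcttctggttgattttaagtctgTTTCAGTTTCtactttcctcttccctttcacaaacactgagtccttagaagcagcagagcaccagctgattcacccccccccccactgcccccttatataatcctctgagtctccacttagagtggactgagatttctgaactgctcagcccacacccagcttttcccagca
Rsad2, chr12:26456403-26456702, minus strand: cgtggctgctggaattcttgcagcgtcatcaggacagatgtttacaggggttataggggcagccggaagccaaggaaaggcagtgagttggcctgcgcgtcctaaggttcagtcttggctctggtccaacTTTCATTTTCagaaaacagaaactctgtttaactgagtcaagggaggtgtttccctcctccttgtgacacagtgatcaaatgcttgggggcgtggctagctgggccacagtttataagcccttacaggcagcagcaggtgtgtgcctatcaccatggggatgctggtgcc
Isg15, chr4:156200769-156201068, minus strand: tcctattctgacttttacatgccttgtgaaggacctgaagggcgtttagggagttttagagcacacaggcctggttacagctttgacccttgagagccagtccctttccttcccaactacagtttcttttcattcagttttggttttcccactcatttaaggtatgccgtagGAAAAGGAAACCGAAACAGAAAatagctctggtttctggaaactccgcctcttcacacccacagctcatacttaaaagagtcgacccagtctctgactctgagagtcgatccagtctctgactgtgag

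In Ifit1 the matches, TTTCACTTTC and TTTCAGTTTC, span bases 104 to 95 and 85 to 76 before the start. Ifit3 holds the same pair of 10-letter words, at bases 156 to 147 and 122 to 113 before its start. Rsad2 has 1 match, TTTCATTTTC, at bases 120 to 111. In Isg15 a run of 3 overlapping matches on the gene's own strand covers bases 78 to 57. No match was found in the windows of Oasl2, Irf7 or either of the 2 annotated starts of Ifit2, which says only that these letters are not in those windows. Over the whole table, 3.44% of 32851 windows hold a match. A match describes the sequence and is not shown here to be a bound site.

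**Figure D1:**
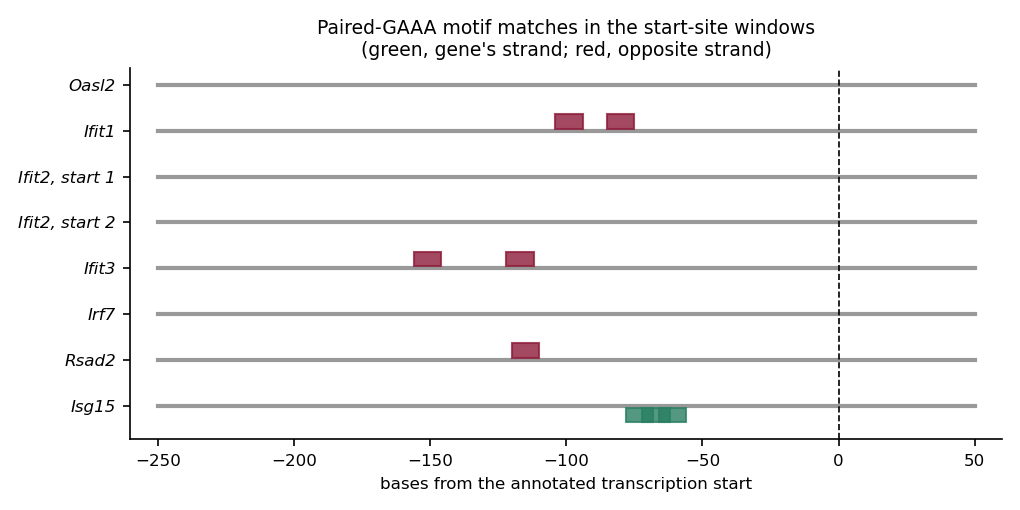
Matches to GAAANNGAAA in the start-site windows of the 7 genes with a RefSeq entry, against distance in bases from the annotated transcription start (dashed line). Ifit1 and Ifit3 have 2 matches each on the opposite strand, Rsad2 has 1, and Isg15 has 3 that overlap on its own strand.

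Each of the 9 genes had 1 probe set, and each lay above the floor of 5.475 (in log2 units, the midpoint of the whole table, which kept 14061 genes) on all 4 arrays. Levels are compared between arrays for a gene and not between genes, since probe sets differ in response. With 1 array a group there is no replicate spread, so no order of arrays below carries an error, and p-values come only from an additive limma fit that takes the disagreement between the genotypes' 5FU differences as its error. In bulk RNA, fewer cells of a type and less RNA per cell cannot be told apart.

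Markers of the sorted cells and of other cell types were read on each array. All 8 measured markers of stem and progenitor cells, Kit among them (log2 values of 11.08 to 11.87), were above the floor on every array, while Ly6a, which encodes Sca-1, had no probe set of 1 gene. Their summed linear level was lower after 5FU in both genotypes, from 10840 to 7715 in Ctrl and from 11130 to 8387 in AMKO. Of the 8, 6 were lower and 2 higher after 5FU in each genotype. Kit differed by -0.76 and -0.71, and Procr, a surface receptor of stem cells, by -1.64 and -0.70. The 2 higher were Flt3, a cytokine receptor of multipotent progenitors, by 1.57 and 0.52, and Cd34, by 1.03 and 0.64. The Ctrl 5FU array stood apart. The summed linear level of 14 neutrophil markers was 25110 there against 1258 to 1850 on the other arrays, that of 9 B-cell markers 5505 against 583.2 to 635.4, and that of 13 monocyte and macrophage markers 4125 against 928.5 to 1263. Neutrophil markers were at least 2-fold higher after 5FU for 13 of 14 genes in Ctrl and 2 of 14 in AMKO. Outside the Ctrl 5FU array, 3 to 6 of the 14 were above the floor. The highest of them was Csf3r, at 9.52 to 10.49 there and at 10.46 on the Ctrl 5FU array. Of 9 plasmacytoid and dendritic cell markers kept after the floor, 3 were at least 2-fold higher in Ctrl, Flt3 among them, and 0 in AMKO. In each genotype 4 of the 9 were higher after 5FU and 5 lower, with medians of -0.12 in Ctrl and -0.04 in AMKO. Siglech, a plasmacytoid dendritic cell receptor, was at 7.50 on the Ctrl 5FU array and at 4.62 to 5.43 elsewhere. The sum of 9 T-cell and NK-cell markers was 491.5 and 479.0 at basal and 1212 and 991.1 after 5FU, in Ctrl and AMKO. Of the 4 kept after the floor, 3 were higher after 5FU in Ctrl and 1 in AMKO. That 1 was Nkg7, the highest marker of this list on every array, with differences of 1.86 and 1.77. Klrb1c differed by -0.93 and -0.81, so the sums do not describe the list as a whole. Of the T-cell receptor complex, Cd3e was under the floor on all arrays, and Cd3g and Cd3d were above it on the Ctrl 5FU array alone, at 5.81 and 5.59. The sum of 6 erythroid markers was 1146 on that array and 497.1 to 583.5 on the others. Each 5FU difference in Ctrl below, and each AMKO minus Ctrl difference after 5FU, rests on that array, and the part of these cells in it was not tested; the 5FU difference in AMKO does not use that array.

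After 5FU the 9 genes did not move as 1 block. Oas2, Ifit2, Irf7 and Isg15 were higher in both genotypes, Ifit1, Ifit3 and Rsad2 were lower in both, and Oasl2 and Usp18 differed between them. Over all 14061 genes, 37.0% were higher and 33.7% lower in both genotypes, 27.4% had opposite signs and 1.91% an exact 0, so the members' counts of 4 and 3 of 9 lie near the background. The median of the 9 log2 differences was 0.00 in Ctrl and 0.67 in AMKO, beside 0.01 and 0.03 for all genes kept. At least 2-fold higher were 1 of 9 in Ctrl (background 5.02%) and 2 of 9 in AMKO (background 4.69%), and 0 of 9 were at least 2-fold lower in either (background 4.46% and 3.55%). With a 1.5-fold size, 3 were higher and 1 was lower in Ctrl (background 11.9% in each direction), and 5 were higher and 0 lower in AMKO (background 15.4% and 10.5%).

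**Figure D2:**
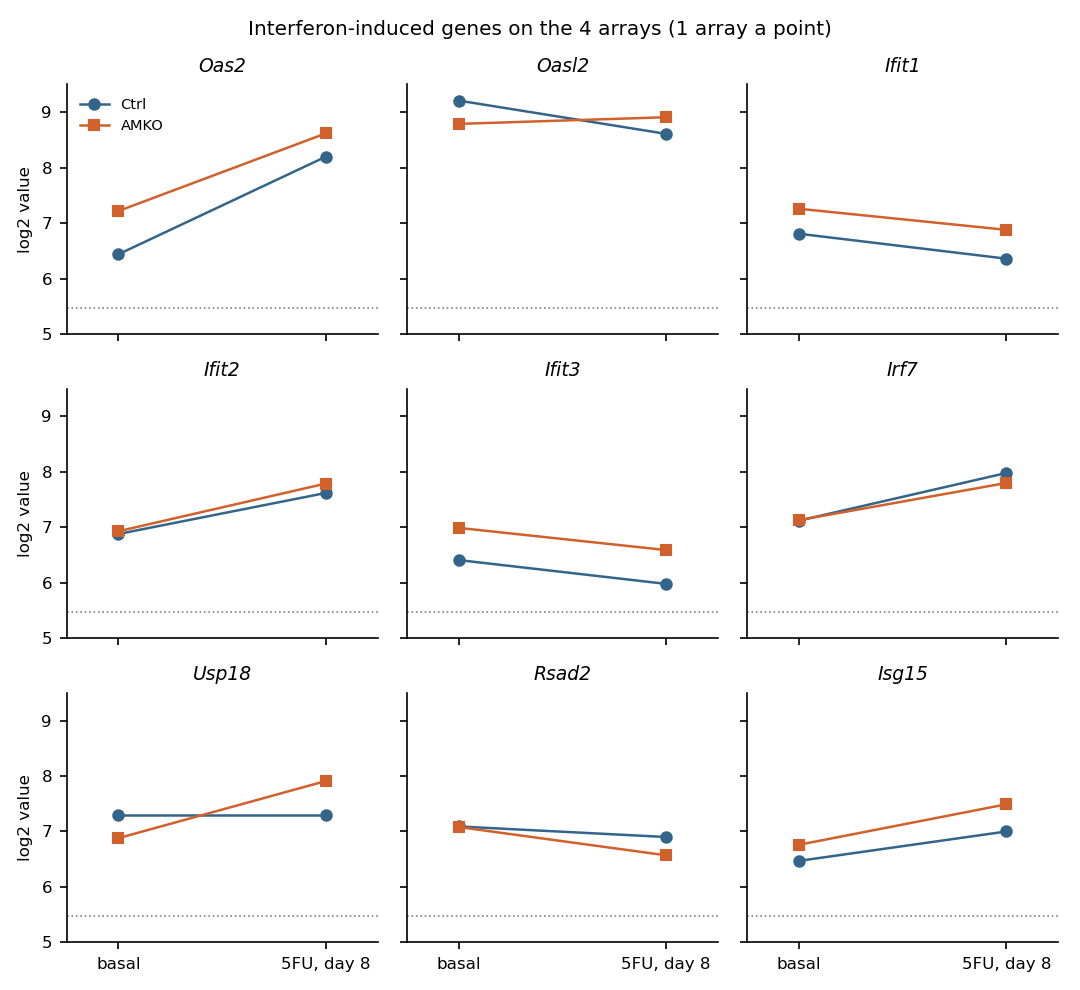
Log2 values of the 9 genes on the 4 arrays, with Ctrl as blue circles and AMKO as orange squares, a point for each array and no error bars because each group has 1 array; the dotted line is the floor of 5.475. Oas2 has the steepest lines (1.76 in Ctrl and 1.40 in AMKO), the lines of Ifit1 and Ifit3 are alike, and those of Usp18 and Oasl2 cross.

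Oas2 encodes an enzyme that senses double-stranded RNA and makes the short oligoadenylates that switch on RNase L. Its log2 value was 6.44 in Ctrl basal, 7.22 in AMKO basal, 8.20 in Ctrl 5FU and 8.62 in AMKO 5FU. Both 5FU arrays were above both basal arrays. The gene was 3.39-fold higher after 5FU in Ctrl and 2.64-fold higher in AMKO, sizes reached by 1.71% and 1.63% of all genes kept. In the limma fit the averaged 5FU difference was 1.58 (SE 0.16) with an adjusted p of 0.0697, short of the 0.05 threshold. That fit called 0 of 14061 genes (background 0.0%), while 3907 genes (27.8%) and 4 of the 9, Oas2, Ifit2, Irf7 and Isg15, had an unadjusted p under 0.05. Among the alternatives run for that fit, Oas2 alone of the 9 genes was ever called: it passed after quantile normalization (adjusted p 0.0341), after median centring (0.0484), with robust estimation (0.0203) and with the floor raised to the 75th percentile (0.0211), where 6.58%, 1.15%, 9.35% and 15.7% of the genes tested passed. It did not pass with no floor, with averaged probe sets or without the trend, where the smallest adjusted p of the 9 genes was 0.106, 0.0663 and 0.0913, nor in a fit on treatment alone that left out the Ctrl 5FU array, where it was 0.0938.

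Oasl2 encodes a relative of the OAS enzymes that carries ubiquitin-like domains. Its values were 9.21 in Ctrl basal, 8.79 in AMKO basal, 8.61 in Ctrl 5FU and 8.91 in AMKO 5FU, so Ctrl basal was the highest and Ctrl 5FU the lowest array, and the basal and 5FU values overlapped. The 5FU difference was -0.60 in Ctrl and 0.12 in AMKO, the latter turning to -0.04 after quantile normalization. The 2 OAS members therefore did not share a direction in Ctrl. Among the other genes of this arm, Oasl1, which lies next to Oasl2 in the RefSeq gene table, had 5FU differences of 0.80 and 0.57 in Ctrl and AMKO. Oas3, the neighbour of Oas2 and a longer OAS enzyme, had -0.03 and 0.83. Oas1b had -0.76 and -0.95, and Oas1c -0.56 and -0.46. Pde12, a phosphodiesterase that degrades oligoadenylates, had 0.26 and 1.13, and Abce1, known as an RNase L inhibitor, 0.27 and 0.40. This list kept 7 genes, with a median of -0.03 in Ctrl and 0.40 in AMKO. A 2-fold higher value was reached by 0 of them in Ctrl and 1 in AMKO (background 5.02% and 4.69%). A 2-fold lower one was reached by 0 (background 4.46% and 3.55%). OAS genes are near-identical in part, and a probe set shared by Oas1a and Oas1g differed by -0.06 and -0.04.

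The IFIT proteins are RNA-binding tetratricopeptide proteins: Ifit1 holds back translation of RNA with an incomplete cap, Ifit2 is linked to cell death, and Ifit3 works as a partner of the others. The 3 genes lie in 1 cluster in the RefSeq gene table. Ifit1 was at 6.81 in Ctrl basal, 7.26 in AMKO basal, 6.36 in Ctrl 5FU and 6.88 in AMKO 5FU. Ifit3 was at 6.41, 6.99, 5.98 and 6.59 on the same arrays. Both had AMKO basal as their highest and Ctrl 5FU as their lowest array, and since AMKO 5FU lay above Ctrl basal, the basal and 5FU values overlapped. The 5FU difference was -0.45 in Ctrl and -0.38 in AMKO for Ifit1, and -0.43 and -0.40 for Ifit3, or 1.37-fold and 1.30-fold lower and 1.35-fold and 1.32-fold lower. In the limma fit the average was -0.42 for each, with SE 0.15 and adjusted p of 0.185 and 0.192, so neither passed.

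Ifit2 went the other way. Its values were 6.88 in Ctrl basal, 6.93 in AMKO basal, 7.62 in Ctrl 5FU and 7.79 in AMKO 5FU, with both 5FU arrays above both basal arrays. It was 1.67-fold higher in Ctrl and 1.82-fold higher in AMKO, and its limma adjusted p for the averaged difference of 0.80 (SE 0.14) was 0.0843. Relatives in the cluster were measured as well. Ifit3b, a close copy of Ifit3, lay under the floor on all arrays (2.99 to 3.68), and Ifit1bl1, whose annotated span holds Ifit1, was at 3.67 and 3.50 at basal and 5.62 and 4.63 after 5FU, above the floor in Ctrl 5FU alone. How far the probe sets of this family share signal was not tested.

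Likeness of pattern was measured as the Euclidean distance between profiles over the 4 arrays, each centred on its own mean, as a description of 4 values a gene. Ifit1 and Ifit3 were 0.112 apart, and of all genes kept only 13 were nearer to Ifit1 and 2 nearer to Ifit3. The next closest pair was Ifit2 and Irf7, at 0.252, with 500 genes nearer to Ifit2 and 355 nearer to Irf7. For Oasl2 and Rsad2, each other's nearest member at 0.543, 39.5% and 40.7% of genes were nearer. The 8 genes closest to the median profile of the 9 were H13, Tpd52l2, Cul1, Tspan31, Pmvk, Setd3, Nap1l4 and Proser1, at distances of 0.0221 to 0.0468, and none of them is on an interferon list used here. That median profile was nearly flat, from -0.17 in AMKO basal to 0.29 in AMKO 5FU.

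**Figure D3:**
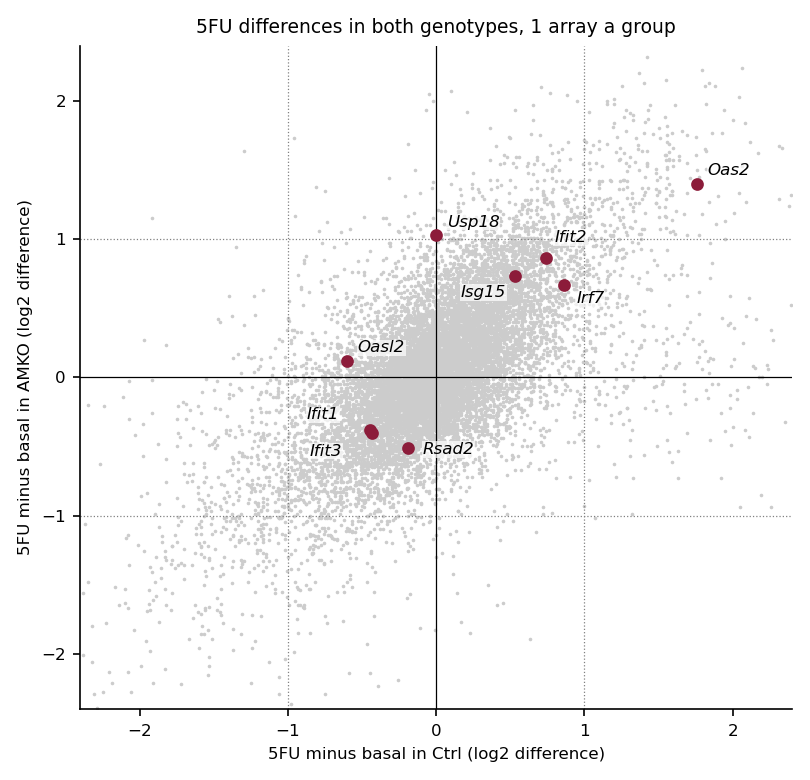
Log2 difference of 5FU minus basal in Ctrl (horizontal) and AMKO (vertical) for the 9 genes (dark red) and the other genes kept (grey), with dotted lines at 2-fold; 215 genes outside the axes are not drawn. Oas2 alone lies beyond 2-fold in both genotypes, and Ifit1 and Ifit3 lie almost on top of each other.

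Irf7 encodes the transcription factor that amplifies interferon alpha production and is itself induced by interferon. It was at 7.12 in Ctrl basal, 7.13 in AMKO basal, 7.98 in Ctrl 5FU and 7.80 in AMKO 5FU. Both 5FU arrays exceeded both basal arrays, by 1.82-fold in Ctrl and 1.59-fold in AMKO, and the limma adjusted p for the average of 0.77 (SE 0.14) was 0.089. Over 8 other kept genes of interferon regulatory factors and their partners, the median was -0.08 in Ctrl and -0.07 in AMKO. At least 2-fold higher were 2 in Ctrl and 0 in AMKO (background 5.02% and 4.69%). Those 2 were Irf8, a factor of monocytes and dendritic cells (3.08 in Ctrl and 0.57 in AMKO), and Irf4, a factor of B cells (1.62 and 0.08). In Ctrl basal both were under the floor, at 5.38 for Irf8 and 4.49 for Irf4, and Irf4 was under it on both AMKO arrays. Both were highest on the Ctrl 5FU array. The summed markers of monocytes and of B cells were high there, while dendritic cell markers were mixed, with 4 of 9 higher than in Ctrl basal and 5 lower. The part of these cells in the difference was not tested. Irf1 had differences of -0.81 and -0.09, and Irf3, which starts interferon transcription, -0.56 in each genotype.

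Isg15 encodes a ubiquitin-like protein that is coupled to other proteins, and Usp18 the protease that removes it and also blocks signalling at Ifnar2. Isg15 was at 6.47 in Ctrl basal, 6.76 in AMKO basal, 7.0 in Ctrl 5FU and 7.49 in AMKO 5FU. It was 1.44-fold higher after 5FU in Ctrl and 1.66-fold higher in AMKO, both 5FU arrays were above both basal arrays, and its limma adjusted p for an average of 0.63 (SE 0.15) was 0.114. Usp18 was at 7.29 on both Ctrl arrays, and at 6.88 in AMKO basal and 7.91 in AMKO 5FU. Its 5FU difference was thus 0.00 in Ctrl and 1.03 in AMKO, the largest gap between genotypes among the 9 genes, and the AMKO value was 0.98, just under 2-fold, after quantile normalization. The limma adjusted p of Usp18 was 0.351.

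The genes of the enzymes that attach Isg15 differed in direction. Uba7, the activating enzyme, was at 11.58 in Ctrl basal, 11.67 in AMKO basal, 10.26 in Ctrl 5FU and 10.35 in AMKO 5FU. Both 5FU arrays lay below both basal arrays, a difference of -1.32 (2.50-fold lower) in each genotype, and the limma adjusted p was 0.0697. The conjugating enzyme Ube2l6 (-0.11 and 0.03) and the ligase Herc6 (-0.11 in each) differed by less. Trim25 had differences of 0.25 and 0.29, with both 5FU arrays above both basal arrays, as for Isg15. Of these 4 genes, 1 in each genotype was at least 2-fold lower (background 4.46% in Ctrl and 3.55% in AMKO). At least 2-fold higher were 0 (background 5.02% and 4.69%).

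Rsad2 encodes viperin, a radical enzyme that makes a chain-ending nucleotide against viral polymerases. It was at 7.09 in Ctrl basal, 7.08 in AMKO basal, 6.90 in Ctrl 5FU and 6.57 in AMKO 5FU. Both 5FU arrays were below both basal arrays, by 1.14-fold in Ctrl and 1.42-fold in AMKO, and the limma adjusted p for the average of -0.35 (SE 0.17) was 0.273. Cmpk2, the neighbouring kinase gene that supplies the nucleotide viperin acts on, had differences of 0.12 and 0.36.

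Read beside the promoters printed above, the 4 genes with the paired element did not share a direction. Isg15, with 3 overlapping matches, was higher after 5FU in both genotypes, while Ifit1, Ifit3 and Rsad2, with 2, 2 and 1, were lower in both. Ifit2 and Irf7, higher in both, had none in their windows. Over all 11022 kept genes with a window, the 400 with a match had median 5FU differences of 0.00 in Ctrl and 0.05 in AMKO, against 0.01 and 0.04 for those without.

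AMKO and Ctrl were next compared at each time, which shares no array between the basal and the 5FU comparison. Oas2, Ifit1, Ifit3 and Isg15 were higher in AMKO at both times, and Ifit2 by less. None of the 9 was 2-fold different in either direction at basal (background 0.228% higher and 0.697% lower) or after 5FU (background 0.74% and 2.63%). With a 1.5-fold size, 1 was higher and 0 lower at basal (background 2.51% and 3.63%), and 2 were higher and 0 lower after 5FU (background 4.15% and 5.33%). The median of the 9 differences was 0.05 at basal and 0.42 after 5FU, beside 0.00 and 0.06 for all genes kept. Both differences were above 0 for 5 of 9 genes, below 0 for 1 and of opposite sign for 3, where all genes kept had 29.7%, 19.8% and 47.4%, with an exact 0 in 3.12%.

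Oas2 differed by 0.78 at basal, a size reached by 0.804% of genes kept, and by 0.42 after 5FU, reached by 10.3%. Ifit3 differed by 0.58 and 0.61, reached by 2.67% and 3.83%, and Ifit1 by 0.45 and 0.52, reached by 5.80% and 5.97%. For Ifit1 and Ifit3 the AMKO array was thus above the Ctrl array by much the same amount before and after 5FU. Isg15 differed by 0.29 and 0.49. Ifit2 differed by 0.05 at basal, which turned to -0.03 under median centring, and by 0.17 after 5FU. Rsad2 differed by -0.01, which became 0.04 with quantile normalization, and by -0.33. In the limma fit the averaged AMKO difference was 0.60 (SE 0.16) for Oas2, 0.60 (SE 0.15) for Ifit3 and 0.49 (SE 0.15) for Ifit1, each with an adjusted p of 0.906. The fit called 0 genes for AMKO (background 0.0%) and so did each of its alternatives. At an unadjusted p under 0.05 there were 3 of the 9, these same genes, and 3.17% of all genes.

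**Figure D4:**
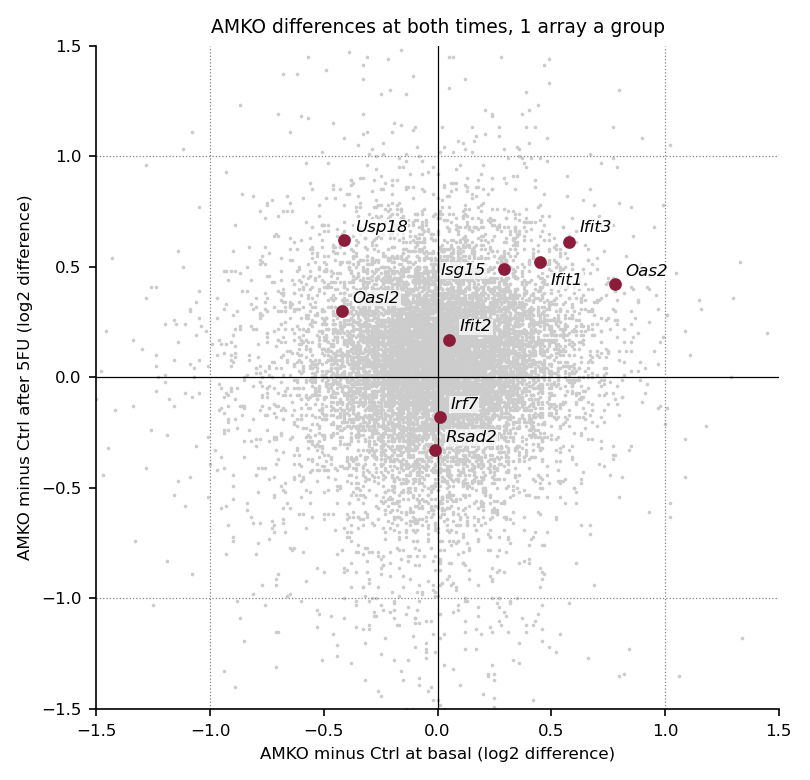
Log2 difference of AMKO minus Ctrl at basal (horizontal) and after 5FU (vertical) for the 9 genes (dark red) and the other genes kept (grey), with dotted lines at 2-fold; 277 genes outside the axes are not drawn. Oas2, Ifit3, Ifit1 and Isg15 lie in the upper right, Usp18 and Oasl2 in the upper left, and none passes 2-fold.

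Usp18 and Oasl2 were lower in AMKO at basal and higher after 5FU, with differences of -0.41 and 0.62 for Usp18 and of -0.42 and 0.30 for Oasl2. Irf7 differed by 0.01 at basal, or -0.07 under median centring, and by -0.18 after 5FU. Subtracting the 5FU difference of Ctrl from that of AMKO gave 1.03 for Usp18, 0.72 for Oasl2, 0.20 for Isg15, 0.12 for Ifit2, 0.07 for Ifit1, 0.03 for Ifit3, -0.19 for Irf7, -0.32 for Rsad2 and -0.36 for Oas2. Among all genes kept, this value was at least 2-fold higher for 2.57% and lower for 2.94%, and with 1 array a group it has no test.

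The rest of the pathway was read from lists of interferon ligands, receptors, signalling proteins, sensors and induced genes. Of 19 interferon genes with a probe set of 1 gene, 7 passed the floor, and their medians were -0.16 in Ctrl and in AMKO. Of these, 0 were at least 2-fold different (background 5.02% higher and 4.46% lower in Ctrl, 4.69% and 3.55% in AMKO). Ifnb1, the gene of interferon beta, lay under the floor on all arrays (3.32 to 3.67). Ifna7 had the largest differences of the ligands, -0.67 and -0.83; the interferon alpha genes are near copies whose probe sets can share signal. Receptors and signalling genes had medians of -0.01 and -0.04 over 15 genes. Ifnar1 had 5FU differences of -0.35 and 0.14, Ifnar2 0.29 and 0.25, Stat2 -0.44 and -0.51, and Jak1 -0.16 and -0.47. Ifngr2, a chain of the interferon gamma receptor, was higher by 1.14 and 0.89. It was the 1 gene of the list at least 2-fold higher in Ctrl, against 0 in AMKO (background 5.02% and 4.69%).

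Among 15 kept sensor and induction genes, Cgas, the DNA sensor that makes the messenger for Sting1, was higher by 0.91 and 1.22, from 5.98 and 5.76 at basal to 6.89 and 6.98 after 5FU. Ikbke, a kinase that activates Irf3 and Irf7, differed by -0.84 and -1.27, and the adaptor Myd88 by 0.83 and 0.70. Tlr9, an endosomal DNA receptor of dendritic cells and B cells, was higher by 1.33 in Ctrl and differed by -0.73 in AMKO, where it ended under the floor at 5.43, with its highest value on the Ctrl 5FU array. At least 2-fold higher were 1 gene in each genotype (background 5.02% in Ctrl and 4.69% in AMKO), and lower 0 in Ctrl and 1 in AMKO (background 4.46% and 3.55%).

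A further 53 interferon-induced genes were kept, with a median of 0.12 in Ctrl and 0.13 in AMKO. In Ctrl 5 of them were at least 2-fold higher and 1 lower (background 5.02% and 4.46%), and in AMKO 2 and 0 (background 4.69% and 3.55%). Of the 5 in Ctrl, Slfn1 (1.84) and Slfn2 (1.61) were above the floor on all arrays, and had differences of 0.03 and 0.07 in AMKO. The other 3, Ifi209, Ifit1bl1 and Ifitm1, were above it on the Ctrl 5FU array alone, at 7.15, 5.62 and 6.94, so their differences are not measured folds. Of the 2 in AMKO, Ifit1bl1 was under the floor on both AMKO arrays, and Apol9b went from 5.48, just above the floor, to 6.58. Ifi209, Slfn1, Slfn2 and Ifitm1 were highest on the Ctrl 5FU array, the one with high neutrophil, monocyte and B-cell markers. The part of those cells in these differences was not tested. Nlrc5, a regulator of MHC class I genes, was at 8.94 in both basal arrays and at 7.74 in Ctrl 5FU and 8.03 in AMKO 5FU, or 2.30-fold and 1.88-fold lower.

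The guanylate-binding proteins and immunity-related GTPases, induced mainly by interferon gamma, were lower after 5FU for 12 of 12 kept genes in Ctrl and 10 of 12 in AMKO. Their medians were -0.95 and -0.26, beside 0.01 and 0.03 for all genes kept. In Ctrl, 49.9% of all genes kept were at 0 or below. The 10 lower in AMKO were thus lower in both genotypes, as were 33.7% of all genes kept. At least 2-fold lower were 5 in Ctrl and 2 in AMKO (background 4.46% and 3.55%), and higher 0 in each (background 5.02% and 4.69%). Of those 5, Gbp2b was above the floor in Ctrl basal alone and ended at 4.63, so its difference is not a measured fold. Gbp4, which ended just under the floor in AMKO at 5.47, differed by -1.37 and -1.97 and Gbp8 by -1.97 and -1.26. No test of the difference between these genes and the 9 above was made.

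**Figure D5:**
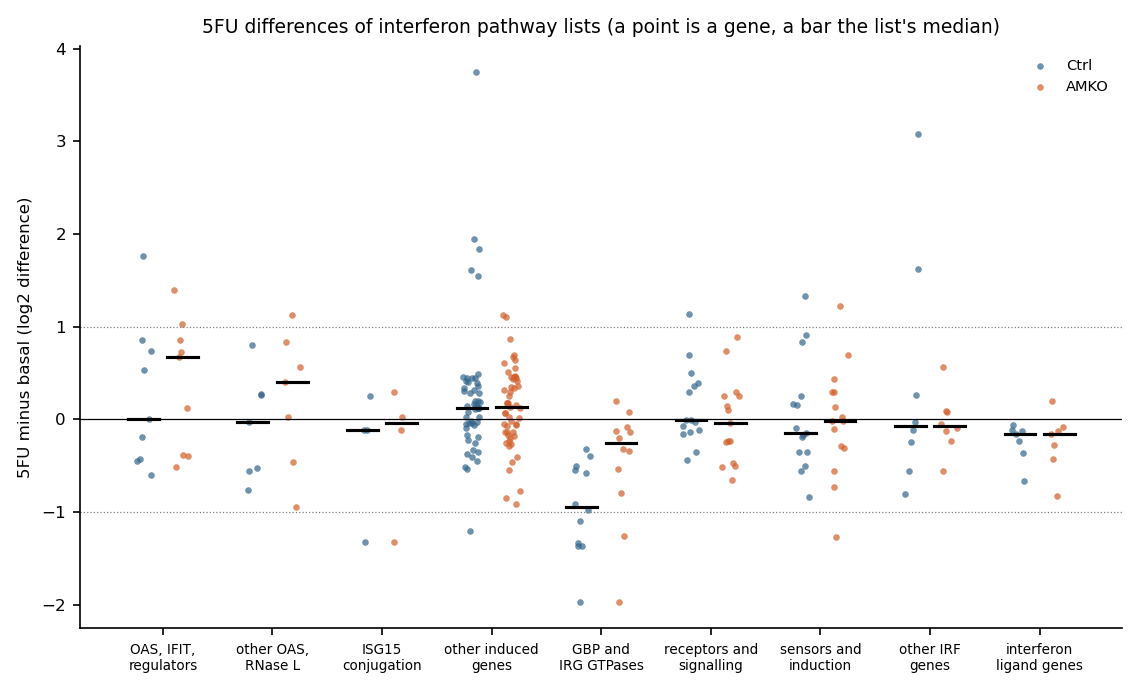
Log2 difference of 5FU minus basal for kept genes of the interferon lists, in Ctrl (blue) and AMKO (orange), where each point is a gene, black bars are medians and dotted lines mark 2-fold; Irf3, Irf9 and Trim25 stand on 2 lists, and the highest point, Ifi209, was above the floor on 1 array only. The 9 genes spread from -0.60 to 1.76 in Ctrl and from -0.51 to 1.40 in AMKO, and the GTPases have the lowest medians (-0.95 and -0.26).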

How the data were processed

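RNA of sorted LSK cells was labelled with biotin for Affymetrix arrays, per the labels' protocols, with 1 array in each of 4 groups. The authors deposited 1 value per probe set and array, read here as log2 from a range of 1.99 to 13.43; how they corrected background and normalized these log2 values is not stated by the labels or the file. The values were used without further scaling. The platform annotation names 1 gene for 23521 of the 34472 probe sets, and symbols were updated through Entrez identifiers where RefSeq held them. A gene took its probe set with the highest mean and was kept when its highest value reached 5.475, the median of all values. Coordinates and sequences are RefSeq's, on GRCm38.p6, and do not come from the arrays' processing.

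Comparisons of 1 array with 1 array are log2 differences with no test, counted at 2-fold. Averaged effects come from limma 3.58.1 under R 4.3.3, with additive genotype and treatment terms, an intensity-trended eBayes prior and 1 residual degree of freedom. Tests were two-sided, with Benjamini-Hochberg adjustment over all 14061 genes and a threshold of 0.05. The fit was also run on simulated data with the same planted 5FU change in both genotypes, whose outcome is not given here. Such data hold no array that stands apart as Ctrl 5FU does, so they cannot show how the fit handles one. Alternatives were quantile normalization, median centring, probe sets averaged per gene, no floor or a floor at the 75th percentile, 1.5-fold and 3-fold sizes, limma without a trend, with robust estimation, and without the Ctrl 5FU array. For arrays, their number limits the precision. The 9 genes and the lists were chosen with earlier results of these data known. All 9 genes are described, with up to 6 genes of each list by the size of their 5FU or AMKO differences and the 8 genes nearest in profile, and marker genes are named as checks; Ifnb1, Cmpk2, Ifnar2, Ifit3b and the shared probe sets were named outside that rule, after their values were seen.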

Additional observations from a re-analysis of the deposited data

Results flagged for a closer look

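With 1 array a group, a difference that points in opposite directions in 2 groups has no test, and none of the following was tested. Among the 9 genes, the 5FU differences of Oasl2 had opposite signs in Ctrl (-0.60) and AMKO (0.12) and were 0.72 apart; after quantile normalization the AMKO value was -0.04 and the signs agreed. The AMKO minus Ctrl differences at basal and after 5FU had opposite signs for Usp18, which shifted by 1.03, Oasl2, by 0.72, and Irf7, by -0.19.

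Among other interferon pathway genes, those with opposite signs and a shift of at least 2-fold were listed. The 5FU differences of Ctrl and AMKO were opposed for Ifnlr1 (AMKO minus Ctrl, -1.35), Tlr9 (-2.06), Ifi209 (-4.04) and Apol9b (1.14). The AMKO differences at basal and after 5FU were opposed for Ifnlr1 (-1.35), Tlr9 (-2.06), Irf8 (-2.51), Slfn1 (-1.81), Slfn2 (-1.54), Apol9b (1.14) and Gbp2b (1.24). Signals under the floor of 5.475 enter some of these values, which are then no measured folds. Ifi209 was above the floor on the Ctrl 5FU array alone, Gbp2b on the Ctrl basal array alone, Irf8 was under it in Ctrl basal, and Tlr9 and Ifnlr1 were under it in AMKO 5FU. The Ctrl 5FU array held the highest value of Ifnlr1, Tlr9, Irf8, Ifi209, Slfn1 and Slfn2, and it also held the highest summed level of neutrophil markers (25110 against 1258 to 1850); the part of those cells was not tested.

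A probe set shared by Ifi27l2a and Ifi27l2b, which names no single gene and entered no comparison, was 1.94 higher on its highest array, Ctrl 5FU, than on the Ctrl basal array on the log2 scale, where it was under the floor at 4.88.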

How the results depend on the processing

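No paired analysis was possible because each group had 1 array and no replicate numbers to pair; the additive limma fit takes the 5FU differences within genotype. Of the 36 differences of the 9 genes (4 comparisons each), 35 moved by less than 0.15 under quantile normalization and all 36 under median centring, while the mean of probe sets changed none because each gene had 1 probe set. Median centring moved the 5FU differences of all genes in AMKO by a median of 0.11. The median 5FU difference in Ctrl, 0.00, was 0.64 with a floor at the 75th percentile, which tests 6 of the 9 genes. With a 1.5-fold size the counts of the 9 genes were 3 higher and 1 lower for 5FU in Ctrl, 5 higher in AMKO, and 1 and 2 higher for AMKO at basal and after 5FU. In AMKO the count of 2 higher after 5FU became 1 with quantile normalization and 0 with a 3-fold size. For 5FU the limma fit called 0 of the 9 genes, and 1, Oas2, under quantile normalization, under median centring, with robust estimation or with the floor raised to the 75th percentile; the cause was not tested. The other counts and medians of the 9 genes kept their value within these limits under the alternatives run. Of 64 counts for the other lists, 61 stayed within 1.5 times under quantile normalization, 62 under median centring, 64 with averaged probe sets and 63 with no floor, while 10 moved by more with a floor at the 75th percentile, 23 with a 1.5-fold size and 12 with a 3-fold size. Signals under the floor, such as those of Ifit3b and Ifnb1, have no reliable differences.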
